A study of Mus musculus with 7 samples.

Results

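The genes examined here were 9 that encode oxidases and other enzymes with reactive or antimicrobial products: Duox2, Duoxa2, Nox1, Noxo1, Noxa1, Cyba, Nos2, Acod1 and Ido1. They were chosen by name for their known function, with earlier results of these data known. All 9 were found among the 55414 gene identifiers of the count table and among the 14329 genes that passed the filter on low counts. Paneth cells (PCs), the granule-filled secretory cells of the small intestinal crypt base, were sorted from C57BL/6J mice 15 h after the animals had received tumour necrosis factor (TNF) or, as control, phosphate-buffered saline (PBS) by injection. The comparison asked how TNF changed the PC transcriptome, by RNA-seq of 3 PBS and 4 TNF libraries, each from a different mouse. The labels name no genetic modification in either group. The sources used here do not give the TNF dose, the sex and age of the mice, the gate of the sort or any batches. An injection into the animal can reach many cell types, so direct and indirect responses of the PCs cannot be told apart in this design.

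DUOX2 and NOX1 are NADPH oxidases of the gut epithelium: they move electrons from NADPH across a membrane onto oxygen, and hydrogen peroxide or superoxide is made on the other side. DUOX2 needs its maturation factor DUOXA2 to leave the endoplasmic reticulum, and NOX1 works with the membrane partner CYBA, the organizer NOXO1 and the activator NOXA1. Inducible nitric oxide synthase (NOS2) makes nitric oxide from arginine, ACOD1 makes the antibacterial metabolite itaconate from cis-aconitate, and IDO1 opens the tryptophan ring on the way to kynurenine.

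All 9 genes were higher in PCs after TNF, from 1.86-fold for Noxa1 to 273-fold for Duoxa2, with Acod1 given only as a bound of at least 107-fold. Each passed edgeR's quasi-likelihood test at a Benjamini-Hochberg adjusted p under 0.05, and in each the lowest TNF library lay above the highest PBS library. The response to TNF was wide: 59.6% of all tested genes were called, 29.5% higher and 30.1% lower. All TNF libraries lay above all PBS libraries in 29.9% of tested genes and below them in 30.9%. Of the genes that reached the filter level in all PBS libraries, as 7 of the 9 did, 28.7% were called higher. The median log2 fold change was 4.16 over the 9 genes and 0.0017 over all tested genes. Of the 9, 8 were called at least 2-fold higher, against 14.4% of tested genes, and 7 were at least 8-fold higher, against 2.64%. Acod1 and Ido1, counted in both the 8 and the 7, passed the filter only through their TNF libraries and so had to differ. The choice of the 9 was also made with earlier results of these data known. The 9 genes together took 0.0164% to 0.023% of the counts after PBS and 0.287% to 0.354% after TNF. In bulk libraries, more RNA per cell and more cells that carry it cannot be told apart.

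**Figure D1:**
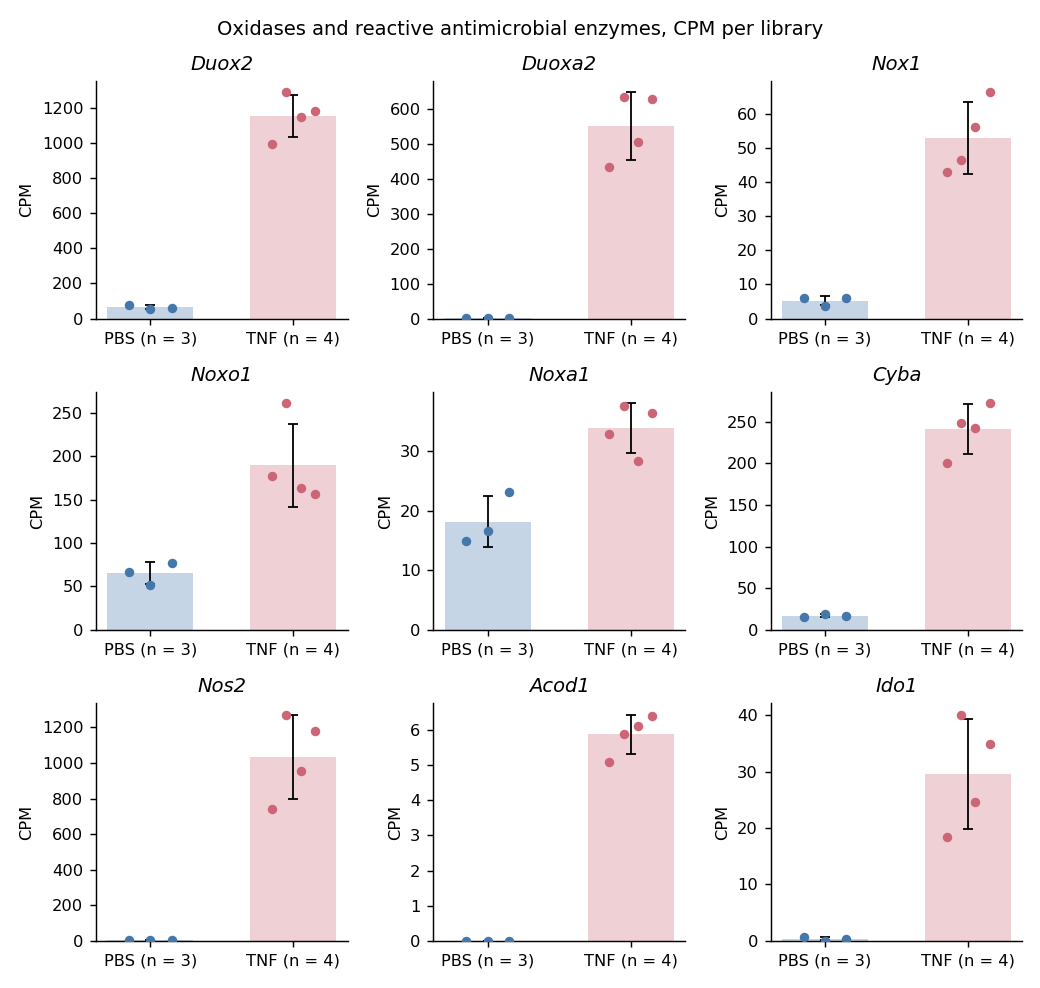
Levels (CPM, counts scaled to 1000000 per library, linear axes from 0) of the 9 genes in each library. Each panel has 3 PBS and 4 TNF points, with the group mean as a bar and the SD as a whisker. In every panel the 4 TNF libraries sit above the 3 PBS libraries, with Duox2 at 995 to 1287 CPM after TNF and Acod1 at 0 in all PBS libraries.

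Library totals ran from 15511455 to 19193721 counts. The label of the sorted cells was checked against 10 PC markers, whose summed level was 184485 to 305386 CPM after PBS and 174238 to 318641 CPM after TNF. Lyz1, Defa24, Defa30 and Itln1 made up most of this sum and were not called, while Mmp7 (log2 fold change 0.88) and Nupr1 (2.49) were called higher and Clps (-2.27) and Habp2 (-1.26) lower. CPM are counts scaled to 1000000 per library, with library sizes set by TMM, the trimmed mean of M-values. Markers of other cells were also present. The summed level of 8 tuft cell markers fell from between 1418 and 2315 CPM to between 265 and 684 CPM, with all 8 called lower. Enterocyte markers summed to 398 to 546 CPM after PBS and to 94.5 to 118 CPM after TNF, with 5 of 10 called lower, Anpep (a mean of 375 and 43.4 CPM) carrying most of the PBS sum, and Slc5a1 called higher (38.8 and 53.5 CPM). The sums after PBS and after TNF were, for goblet cell markers, 11510 to 20971 and 9502 to 11016 (mostly Muc2 and Spink4, neither called), for enteroendocrine markers, 36.4 to 98.6 and 10.6 to 24.6, and for stem cell markers, 3479 to 4802 and 1977 to 2727. Among 8 enteroendocrine markers 3 were called lower, among 7 stem cell markers 6 were, and none was called higher. Most of the stem cell sum was Olfm4 (a mean of 2495 and 1170 CPM) and Slc12a2 (968 and 1024 CPM, not called). Lgr5 went from a mean of 154 to 30.8 CPM. Of 8 stromal and endothelial markers, which summed to 4.22 to 4.45 and 8.44 to 11.0 CPM, Vwf was called higher (a mean of 2.3 and 8.53 CPM), Pdgfrb was called lower (1.8 and 0.521 CPM) and the other 6 were near 0. Of 9 goblet cell markers, 5 were called lower, with Fcgbp at a mean of 2892 CPM after PBS and 58.9 CPM after TNF, and Spdef was called higher. The sum of 12 leukocyte markers was 29.1 to 38.4 CPM after PBS and 55.9 to 65.9 CPM after TNF, and Cd14 alone went from a mean of 4.22 to 30.2 CPM. In this list Cd14, S100a9 and Ly6g were called higher, Ptprc was called lower, Cd3e was at 0 in all libraries, and Adgre1 stayed at or below 0.583 CPM. The neutrophil markers S100a9 and Ly6g had 0 counts in all PBS libraries and lay at 3.21 to 7.85 CPM and 1.11 to 5.71 CPM after TNF. The part of these shifts in the results below was not tested.

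Duox2 and Duoxa2 lie head to head on chromosome 2 (GRCm39), with 449 bases between their annotated gene starts: Duox2 at chr2:122109728-122128930 on the minus strand and Duoxa2 at chr2:122129380-122133366 on the plus strand. The sequence just before the Duoxa2 start lies in this gap and is shown for the letters TATAAA, in capitals, which lie 30 to 25 bases before the RefSeq start, a base inside the annotated gene (chr2:122129131-122129379, plus strand, 5′ to 3′).

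Duoxa2: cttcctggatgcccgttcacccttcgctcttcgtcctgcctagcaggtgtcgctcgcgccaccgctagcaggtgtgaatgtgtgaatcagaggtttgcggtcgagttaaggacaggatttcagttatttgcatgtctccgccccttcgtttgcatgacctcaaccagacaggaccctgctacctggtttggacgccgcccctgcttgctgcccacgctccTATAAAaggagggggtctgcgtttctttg

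Duox2 was at 76.7, 56.5 and 59.7 CPM in PBS libraries 1 to 3, and at 995, 1287, 1149 and 1179 CPM in TNF libraries 1 to 4. The mean of 64.3 ± 10.9 CPM after PBS (SD over 3 libraries) compared with 1152 ± 120 CPM after TNF (SD over 4), 17.9-fold more, at a log2 fold change of 4.16 ± 0.16 (SE; adjusted p = 2.87e-10). Duox2 was thus counted in every PBS library, and the spread within either group was small beside the step between them. Duoxa2, by contrast, was at 3.15, 1.99 and 1.01 CPM after PBS and at 435, 634, 505 and 629 CPM after TNF. The maturation factor rose from 2.05 ± 1.07 to 551 ± 97.7 CPM, 273-fold, or 8.09 ± 0.32 on the log2 scale (adjusted p = 4.45e-09). Only 0.223% of the tested genes had a larger log2 fold change than Duoxa2, and 1.51% had a larger one than Duox2. Leaving out 1 library at a time gave 7.75 to 8.51 for Duoxa2 and 4.08 to 4.31 for Duox2.

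The sister pair of the same locus was low. The oxidase Duox1 was not tested, with 0.106 to 0.305 CPM after PBS and 0.161 to 0.295 CPM after TNF. Its maturation factor Duoxa1 had 6 PBS counts and 107 TNF counts in all, a log2 fold change of 3.76 ± 0.68 (adjusted p = 0.000276). Duoxa1 overlaps Duoxa2 by 695 bases on the opposite strand, and no source used here gives the strand use in counting, so reads in that stretch cannot be assigned to either gene.

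Within each library the count of Duox2 over that of Duoxa2 was 24.3, 28.5 and 59.2 after PBS and 2.29, 2.03, 2.28 and 1.87 after TNF. The groups did not overlap, and the mean log2 ratio differed by -4.01 (TNF minus PBS). With 3 and 4 libraries there are 35 splits, and the two-sided exact permutation p, with the smaller tail doubled, was 0.0571, the smallest this form can give (0.0762 adjusted over the 4 ratios compared). It thus could not pass 0.05. The share of splits with an absolute difference at least as large was 0.0286 (adjusted 0.0381). That exact form was computed after the first p had been seen, and whether the ratio counts as different rests on the choice between them.

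The NOX1 complex started from unequal levels and moved unequally. Nox1 lies on chromosome X (chrX:132987170-133122705, minus strand), Cyba on chromosome 8 (chr8:123150422-123159706, minus), Noxo1 on chromosome 17 (chr17:24914682-24919504, plus) and Noxa1 on chromosome 2 (chr2:24975679-24985181, minus). The Nox1 promoter window from RefSeq is shown because it held 1 of the few matches to the NF-kB consensus among these genes. The match is in capitals, 91 to 82 bases before the RefSeq start and read on the other strand (chrX:133012604-133012853, minus strand, 5′ to 3′). This window lies inside the annotated span of Nox1 but holds no annotated exon.

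Nox1: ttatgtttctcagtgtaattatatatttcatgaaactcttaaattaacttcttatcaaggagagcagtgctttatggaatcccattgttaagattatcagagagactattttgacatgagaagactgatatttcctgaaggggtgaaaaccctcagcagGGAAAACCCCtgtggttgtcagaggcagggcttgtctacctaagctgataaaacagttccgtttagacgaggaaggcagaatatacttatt

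The catalytic subunit Nox1 was at 5.93, 3.72 and 6.1 CPM after PBS and at 42.9, 46.3, 56.2 and 66.2 CPM after TNF. Its mean rose 10.1-fold, from 5.25 ± 1.33 to 52.9 ± 10.5 CPM (log2 fold change 3.34 ± 0.21, adjusted p = 2.87e-08). Cyba, the membrane partner that NOX1 shares with other NADPH oxidases, was at 15.3, 19.1 and 16.2 CPM after PBS and at 200, 249, 243 and 272 CPM after TNF, a log2 fold change of 3.83 ± 0.14 (14.3-fold, adjusted p = 2.14e-10).

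The cytosolic subunits had higher PBS levels than Nox1 per unit length and moved less. The organizer Noxo1 was at 66.9, 51.6 and 77.5 CPM after PBS and at 177, 261, 163 and 157 CPM after TNF. TNF library 2 stood above the other TNF libraries, and the mean rose 2.9-fold, from 65.3 ± 13.0 to 190 ± 48.4 CPM, or by 1.54 ± 0.19 on the log2 scale (adjusted p = 2.91e-05). The activator Noxa1 was at 14.9, 16.6 and 23.1 CPM after PBS and at 32.9, 37.7, 28.4 and 36.5 CPM after TNF. Noxa1 changed least of the 9 genes, at 0.89 ± 0.16 on the log2 scale (adjusted p = 0.000299), and 18.2% of the tested genes had a larger one. Noxo1 overlaps Tbl3 and Gfer on the other strand by 2582 and 872 bases. Tbl3 fell by 0.76 and Gfer rose by 0.8 on the log2 scale, so part of the Noxo1 counts is uncertain. Il17c, which overlaps Cyba by 423 bases on the other strand, was at most at 1.11 CPM. Nox1 overlaps Cstf2 by 564 bases on the other strand, and Cstf2 was at 44.5 to 56.8 CPM after PBS and 40.5 to 46.6 CPM after TNF, so reads in that stretch cannot be assigned, which touches the low PBS level of Nox1 and the ratios to Nox1. Noxa1 overlaps Entpd8, which fell by 1.89 on the log2 scale, by 50 bases.

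The balance within the complex was compared through count ratios to Nox1. Noxo1 over Nox1 was 11.3, 13.9 and 12.7 after PBS and 4.13, 5.63, 2.91 and 2.36 after TNF, a difference of -1.82 on the log2 scale. Noxa1 over Nox1 was 2.51, 4.47 and 3.78 after PBS and 0.765, 0.814, 0.506 and 0.551 after TNF, a difference of -2.43. In both the groups did not overlap, and the exact permutation p was 0.0571 with the smaller tail doubled (0.0762 adjusted) and 0.0286 from the absolute difference (0.0381 adjusted), under the same reservation as for Duox2 and Duoxa2. Cyba over Nox1 was 2.58, 5.14 and 2.65 after PBS and 4.66, 5.37, 4.33 and 4.1 after TNF. These groups overlapped, and the difference of 0.49 had exact permutation p of 0.229 and 0.2 in the 2 forms.

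**Figure D2:**
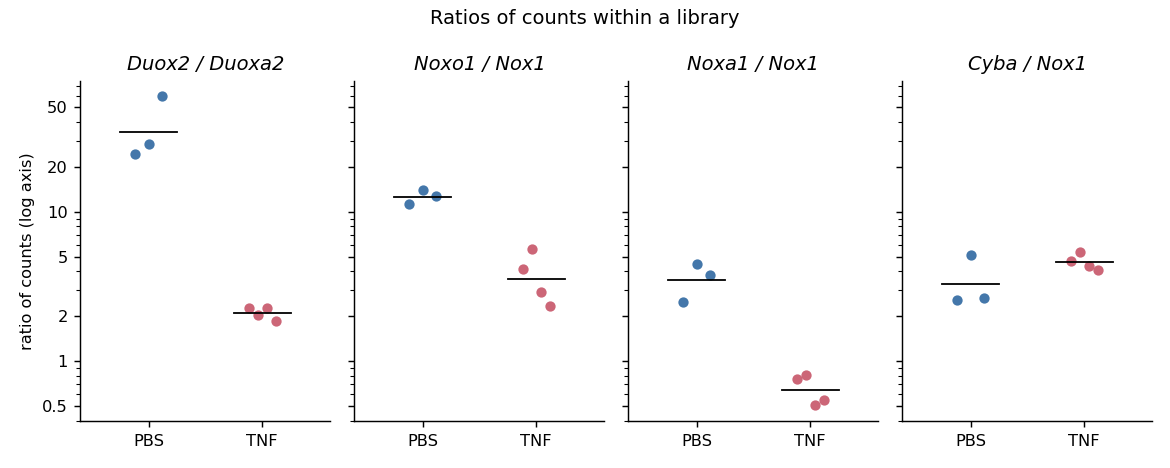
Ratios of counts within a library (log axis), with 3 PBS and 4 TNF points a panel and lines at the mean of the log ratios. Duox2 over Duoxa2, Noxo1 over Nox1 and Noxa1 over Nox1 were lower in the TNF libraries without overlap, whereas Cyba over Nox1 overlapped between groups.

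Of the 13 other NADPH oxidase subunit genes examined, 8 passed the filter, 3 of them only through their TNF libraries (Duoxa1, Ncf4 and Hvcn1), which leaves a called gene of this kind only 1 direction. Of the 8, 6 were called higher, against 29.5% of all tested genes, none was called lower and 2 were not called, with a median log2 fold change of 1.15. Cybb, the phagocyte oxidase, was not tested, at 0 to 0.106 CPM after PBS and 0 to 0.0654 CPM after TNF. Ncf4, a cytosolic subunit of the phagocyte oxidase, had 1 PBS count and 77 TNF counts in all, a ratio of 61.2 with a 95% exact binomial interval of 10.7 to 2449 for counting error. Without PBS library 2, which held the single count, the bound was at least 13.1-fold, and without PBS library 3 the ratio was 40.1. The GTPase Rac2, which also serves that oxidase, rose by 1.31 ± 0.36 on the log2 scale (adjusted p = 0.0148), a call that was lost without PBS library 1 (adjusted p = 0.0638) and with no filter on low counts (adjusted p = 0.0748).

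Of 12 peroxidases and other enzymes that make or remove hydrogen peroxide, 8 were tested, 1 of them only through its TNF libraries (Lpo). Of the 8, 7 were called higher and 1 lower, against 29.5% and 30.1% of all tested genes, with a median log2 fold change of 0.88. At 2-fold or more, 3 were called higher and 1 lower. Of the superoxide dismutases, which form hydrogen peroxide, Sod3 was not tested (5 PBS counts and 1 TNF count), Sod2 rose by 0.93, and Sod1 rose by 0.31, a call that was lost in 7 of 14 alternatives, 5 of which left out PBS library 2 or 3 or TNF library 2, 3 or 4 (adjusted p from 0.052 to 0.147). Gpx2, the glutathione peroxidase of the gut epithelium, rose from 145 ± 19.7 to 4203 ± 683 CPM (log2 fold change 4.86 ± 0.21). Lpo, a peroxidase that turns hydrogen peroxide and thiocyanate into an antibacterial oxidant, had 0 counts after PBS and 171 after TNF. This is at least 45.3-fold higher against a floor of 3 counts over the PBS libraries, and the bound was 29.0 without PBS library 2 and 29.7 without PBS library 3. The peroxiredoxin Prdx1 rose by 1.11 ± 0.12. Catalase (Cat) fell from 48.6 ± 8.75 to 15.3 ± 3.08 CPM (log2 fold change -1.66 ± 0.17).

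Nos2 lies on chromosome 11 (chr11:78811613-78851080, plus strand). It was at 6.24, 3.92 and 5.04 CPM after PBS and at 739, 1267, 957 and 1178 CPM after TNF. The mean rose from 5.07 ± 1.16 to 1035 ± 236 CPM, 205-fold, or 7.68 ± 0.26 on the log2 scale (adjusted p = 2.4e-10). TNF library 1 was the lowest of the TNF libraries for Nos2, as it was for 7 of the 9 genes, and it also held the highest tuft marker sum of the TNF libraries, 684 CPM. Without it the log2 fold change of Nos2 was 7.81.

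Of 14 other genes of nitric oxide synthesis and arginine supply, 11 were tested, with 5 called higher, 3 lower and 3 not called (median log2 fold change 0.28). Over all tested genes 29.5% were called higher and 30.1% lower, so the share called lower is near the background. At 2-fold or more 3 were called higher and 2 lower. Gch1, the first enzyme of the synthesis of the cofactor tetrahydrobiopterin, rose from 3.25 ± 0.559 to 53.3 ± 1.68 CPM (log2 fold change 4.04 ± 0.15). The later enzymes of that cofactor differed in direction: Pts fell by 1.29, Spr rose by 0.46, and Qdpr, which recycles the cofactor, fell by 0.38. The Spr call was lost with total counts (adjusted p = 0.119) and the Qdpr call without PBS library 2 (adjusted p = 0.0615). Ass1, which rebuilds arginine from citrulline, rose by 1.31 ± 0.13, and Nostrin, a trafficking protein of endothelial nitric oxide synthase, rose by 2.16 ± 0.14.

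Acod1 was not detected after PBS and was low after TNF. The gene lies on chromosome 14 (chr14:103284413-103294009, plus strand) and its promoter is shown because, of the 9 genes, this one went from 0 counts in every PBS library to counts in every TNF library. The bases before the annotated start contain no match to the 3 factor motifs, and no letters are in capitals (chr14:103284198-103284412, plus strand, 5′ to 3′).

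Acod1: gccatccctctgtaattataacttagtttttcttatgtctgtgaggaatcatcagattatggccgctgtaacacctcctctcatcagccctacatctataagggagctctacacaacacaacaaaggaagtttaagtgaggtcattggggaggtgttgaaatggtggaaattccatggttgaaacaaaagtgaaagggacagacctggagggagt

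Acod1 was at 0 CPM in the 3 PBS libraries and at 5.09, 5.89, 6.1 and 6.41 CPM in the TNF libraries, or 0 against 403 counts. This is at least 107-fold higher against a floor of 3 counts over the PBS group (adjusted p = 2.26e-07). With only 2 PBS libraries behind the floor, the bound was 68.4 without PBS library 2 and 70.0 without PBS library 3. In the same TNF libraries the neutrophil markers that were also at 0 after PBS and passed the filter were at 5.76, 6.84, 3.21 and 7.85 CPM (S100a9) and at 5.71, 2.83, 3.53 and 1.11 CPM (Ly6g). Of other markers in the leukocyte list, Itgam averaged 0.781 CPM after PBS and 0.85 after TNF, Lyz2 9.72 and 8.29 (neither called), and S100a8 had 0 PBS counts and 32 TNF counts and was not tested. Their part in the Acod1 counts was not tested.

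Ido1 (chr8:25074150-25087025, minus strand) was near the detection limit after PBS, at 0.618, 0.0509 and 0.424 CPM, which are 10, 1 and 8 counts. After TNF it was at 18.5, 40.1, 24.6 and 34.9 CPM. The mean rose from 0.364 ± 0.288 to 29.5 ± 9.8 CPM, or by 6.37 ± 0.47 on the log2 scale (adjusted p = 7.56e-07). With so few PBS counts, this value ranged between 5.82 and 6.94 when single libraries were left out.

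All 11 genes examined around itaconate were tested. Sugct passed the filter through libraries of both groups (0.764 and 0.954 CPM in PBS libraries 2 and 3, 0.643 CPM in TNF library 3). Of the 11, 2 were called higher, 5 lower and 4 not called, with a median log2 fold change of -0.31. Over all tested genes 59.6% were called, 29.5% higher and 30.1% lower, so a list with this many calls is near the background, and at 2-fold or more none of the 11 was called. The count called lower was 3 without PBS library 1 and also without PBS library 2. Of the 4 subunit genes of succinate dehydrogenase, which itaconate inhibits, Sdha fell by 0.98, Sdhd rose by 0.41, and Sdhb (-0.2) and Sdhc (-0.08) were not called. Citrate synthase (Cs) rose by 0.37, and both rises were lost when libraries were scaled by total counts (adjusted p = 0.109 for Sdhd and 0.104 for Cs). Clybl, which takes part in itaconate breakdown, fell by 0.85. Auh fell by 0.45, a call lost without PBS library 2 (adjusted p = 0.0696).

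Around tryptophan, 9 of 19 genes were tested, Slc6a14 and Il4i1 only through their TNF libraries, with 7 called higher, 1 lower (2 without PBS library 1) and 1 not called (median log2 fold change 1.06), against 29.5% higher and 30.1% lower over all tested genes. At 2-fold or more, 5 were called higher and none lower. The amino acid transporter Slc6a14, which takes up tryptophan among other substrates, had 2 PBS counts and 1589 TNF counts. The ratio was 632, and its 95% counting interval ran from 175 to 5220. Both PBS counts came from PBS library 2, and without it the bound was at least 270-fold, while without PBS library 3 the ratio was 414. Il4i1, a secreted oxidase of aromatic amino acids that releases hydrogen peroxide, rose from 0.77 ± 0.277 to 28.6 ± 3.43 CPM (log2 fold change 5.21 ± 0.24). Afmid, the enzyme after IDO1, rose by 1.23 ± 0.39, a call lost with total counts (adjusted p = 0.062) and without PBS library 2 (adjusted p = 0.05). Kyat1, a kynurenine aminotransferase, fell by 0.65. Kmo and Kynu, further along the pathway, had 2 and 1 counts after PBS and 1 and 0 after TNF and were not tested.

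**Figure D3:**
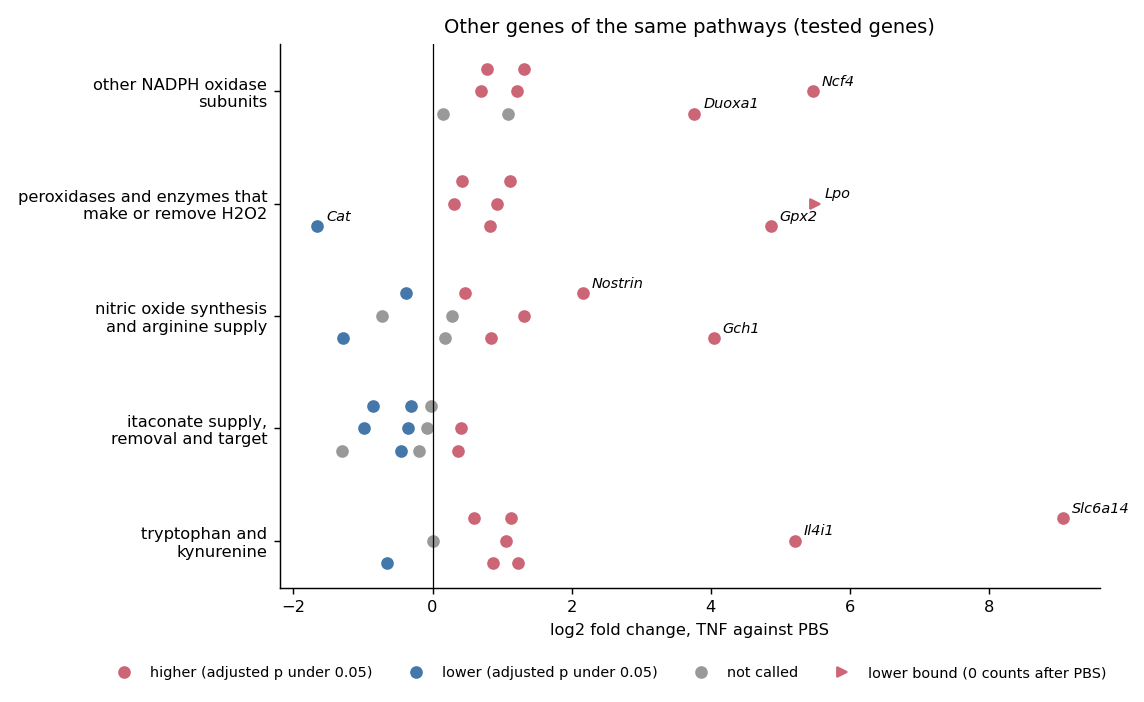
Log2 fold change (TNF against PBS) of tested genes in 5 lists of related genes, 1 point a gene with 1 gene not shown, in colour where the adjusted p was under 0.05 and grey where it was not. Of the 47 tested genes in the lists, 7 did not reach the filter level in all PBS libraries. Of the 47, 27 were called higher and 10 lower, against 29.5% and 30.1% of all tested genes. The triangle marks the lower bound of Lpo, and the points of Ncf4 and Slc6a14 are fitted values that rest on 1 and 2 PBS counts.

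Levels were compared between the 9 genes only as CPM per kilobase of annotated exon. After PBS the order was Noxo1 (15.0), Noxa1 (11.1), Duox2 (9.49), Cyba (7.32), Nox1 (1.59), Duoxa2 (1.29), Nos2 (1.14), Ido1 (0.199) and Acod1 (0). The library ranges of neighbours overlapped among Noxo1, Noxa1 and Duox2, and again among Nox1, Duoxa2 and Nos2. After TNF the order was Duoxa2 (346), Nos2 (233), Duox2 (170), Cyba (105), Noxo1 (43.5), Noxa1 (20.7), Ido1 (16.2), Nox1 (16.0) and Acod1 (2.24). Here the ranges overlapped between Duoxa2 and Nos2, between Nos2 and Duox2, between Noxa1 and Ido1, and between Ido1 and Nox1. Duoxa2 and Nos2 thus moved from the lower part of the order to its top, whereas Noxo1, Noxa1 and Nox1 moved down. Acod1 stayed last.

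**Figure D4:**
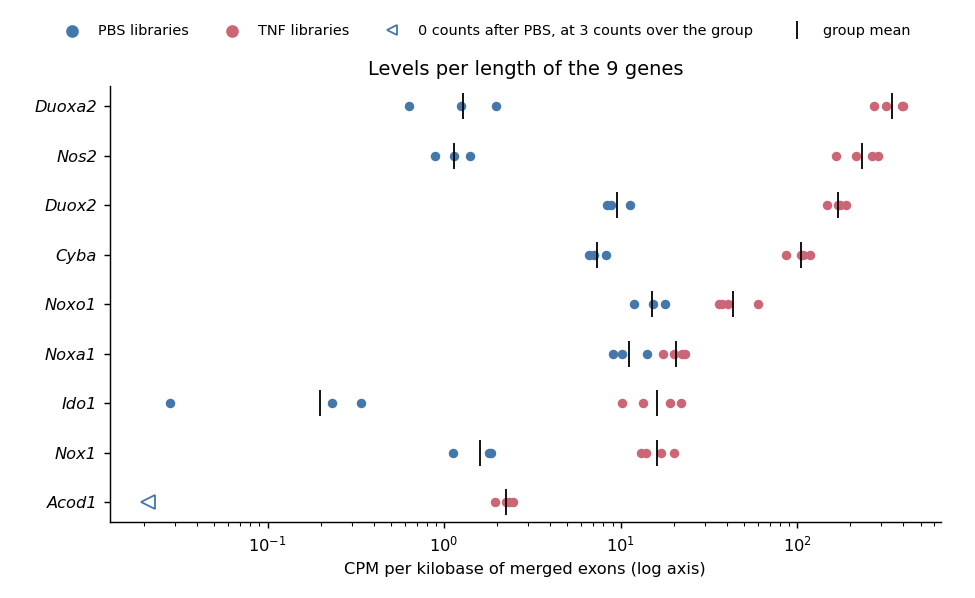
Level of each gene per kilobase of exon (CPM per kb, log axis) after PBS and after TNF, 1 point a library, with group means as ticks and an open triangle at 3 counts over the group for 0 counts. Duoxa2 and Nos2 went from 1.29 and 1.14 to 346 and 233, and Acod1, at 0 after PBS, reached 2.24.

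Genes of like pattern were sought among the 8532 genes that averaged 10 CPM or more, by the distance between centred log2 CPM profiles over the 7 libraries. The nearest to Duox2 were Entpd3 (distance 0.24), Mfsd2a (0.29) and Ier3 (0.34). Cyba was nearest to Tgfbr2 (0.24), Klf6 (0.38) and Nfkbia (0.42). The nearest profiles lay farther off for Duoxa2 (Lrg1, 0.85) and for Nos2 (AW112010, 1.01). For Nox1 they were Agpat4 (0.51), Hk2 (0.6) and Exoc3l4 (0.61). The profiles are points from the same 7 libraries in 2 groups, and a gene with a TNF step of like size lies close by construction.

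RefSeq promoter windows (GRCm38.p6, located by exact match in GRCm39) were found for 7 of the 9 genes, without Nos2 and Ido1. Annotated exons covered all 250 bases of the Noxo1 window, 222 of the Duox2 window and 102 of the Noxa1 window (exon of Gm75083). They covered 35 bases for Acod1, 27 for Cyba and 1 for Duoxa2. On both strands of the 250 bases before the start, the NF-kB consensus matched in 2 of 7 (Nox1 and Noxa1), against 7.25% of 32851 promoters. The interferon response core, GAAA repeated after 2 bases, and the STAT site TTCNNNGAA matched in none of the 7, against 2.98% and 7.02% of all promoters. TATAAA, searched after the sequences had been seen, matched in 2 of 7 (Duoxa2 and Acod1, the latter within bases that the annotation places in the first exon), against 12.4%. A match describes letters in this window and is no evidence of binding.

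**Figure D5:**
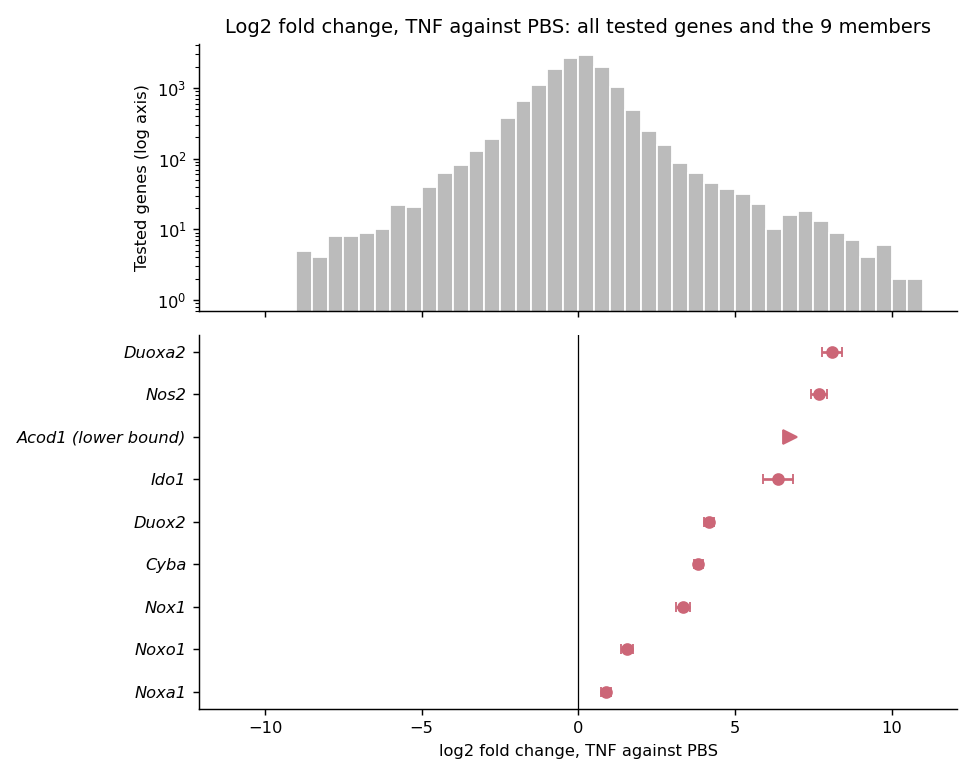
Histogram of the log2 fold change (TNF against PBS) of all 14329 tested genes (log count axis), with the 9 genes and their SE below. The bulk of genes lies around the median of 0.0017, Noxa1 is nearest to it at 0.89, and Duoxa2, Nos2 and Ido1 lie beyond 6; Acod1 is placed at its lower bound of 6.74.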

How the data were processed

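Bulk RNA-seq was measured in 7 libraries of sorted PCs. Per the labels, single-end reads were sequenced on an Element AVITI. The submitters' processing notes name FastQC, Trimmomatic 0.39, STAR 2.7.10a, DESeq2 and the builds mm10 and mm39, with no role; the sources used here give neither the counter nor its strand setting. The authors deposited raw counts, whole numbers of reads per gene. All columns matched labels by name.

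Counts were tested in R 4.3.3 with edgeR 4.0.16 (robust quasi-likelihood test, two-sided, filterByExpr with a minimum count of 10, TMM), TNF against PBS, no covariates, with Benjamini-Hochberg adjustment over all 14329 tested genes. SE came from the log2 fold change and the F statistic. The pipeline was tested on simulated data. Ratios had 0.5 added to each count for the test and were compared by exact permutation in scipy 1.17.1. Symbols, coordinates and exon lengths came from GENCODE on GRCm39 by identifier (54749 of 55414 found); its gene models can differ from those used in counting.

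Every member, the 3 called genes of each list with the largest rise and fall, and Duox1, Duoxa1 and Cybb were to be named; 1 gene that this rule names is not reported here. Spr, Sod1, Sod2, Sod3, Hvcn1, Sugct, Sdhb, Sdhc and the marker genes were named after their values were seen. The members, gene lists and motifs were chosen with earlier results of these data known. For genes with 0 PBS counts, folds are bounds against 3 counts over the group; bounds and 95% Clopper-Pearson intervals cover counting error only. Same-numbered libraries came from different mice.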

Additional observations from a re-analysis of the deposited data

How the results depend on the processing

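Each of the 9 genes was refitted under 15 alternatives: scaling by DESeq2 size factors, by total counts or by TMM without the alpha-defensins and Lyz1 (added after the data were seen), no or another filter on low counts, DESeq2, a replicate block, each library left out in turn, and a call only at 2-fold or more. All 9 kept their direction and their call, except Noxa1 (log2 fold change 0.89), which was not called at 2-fold or more. The count called over all genes was 8543; it was 4530 at 2-fold or more (2065 higher, 2465 lower), 7131 with the replicate block, and 7663 to 8625 with a library left out. With total counts as the scale, the all-gene median of log2 fold changes was -0.16, and the share of calls that were higher went from 49.5% to 40.5%. The replicate numbers do not pair the libraries (correlations of deviations -0.299, -0.0314 and -0.174). Among the genes named from the lists, the block ended the calls of Qdpr (adjusted p = 0.0502), Cs (0.073), Spr (0.0649) and Sod1 (0.119). The counts called higher became 5 for peroxidases, 4 for nitric oxide, 1 for itaconate and 6 for tryptophan, and those called lower 2 for nitric oxide and 4 for itaconate; the other list counts did not change with the block.

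The log2 differences of the ratios were -4.01 for Duox2 to Duoxa2, -1.82 for Noxo1 to Nox1 and -2.43 for Noxa1 to Nox1 in either form of the p, and these 3 passed 0.05 only when the exact permutation p was taken from the absolute difference (0.0286 in place of 0.0571), a form added after the first p was seen. With a library left out they ran from -4.26 to -3.63, from -2.04 to -1.62 and from -2.66 to -2.25, and for Cyba to Nox1 from 0.32 to 0.81, with exact permutation p of 0.1 to 0.533. With the replicate block of 3 pairs, the differences were -3.95, -1.62, -2.35 and 0.55, each with an exact sign-flip p of 0.25, the smallest that 3 pairs allow. Depth limits the genes near 0 after PBS: the folds of Acod1 and Lpo are bounds, and those of Ido1, Ncf4, Duoxa1 and Slc6a14 rest on 1 to 19 PBS counts.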
